A study of Mus musculus with 59 samples.

Results

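Fgf5, Otx2 and Pou3f1 are markers of the formative epiblast, and their RNA was followed here from mouse embryonic stem cells (ESCs) to embryoid bodies (EBs) in control and mutant cells. The 3 genes were found by symbol alone among the 24391 genes of the files. Fgf5 encodes a secreted fibroblast growth factor, Otx2 a homeodomain transcription factor, and Pou3f1 (also called Oct6) a POU domain transcription factor.

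Epiblast cells of the preimplantation embryo are in a naive pluripotent state, and after implantation they pass through a formative state before they commit to a lineage. ESCs held with LIF and inhibitors of differentiation signals resemble the naive state, and on release from them they switch on Otx2, Fgf5 and Pou3f1 and shut off naive genes such as Klf4 and Tbx3. Polycomb repressive complex 1 (PRC1) carries RING1A or RING1B, which ubiquitinate histone H2A, and 1 of several PCGF proteins. PCGF1 belongs to a variant PRC1 that is targeted to CpG-rich promoters.

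The series holds 59 RNA-seq libraries of 6 ESC lines, each with ESCs and EBs. ESCs were grown on feeder fibroblasts with LIF and inhibitors of FGF receptors, MEK and GSK3, and EBs were taken after 2 days of suspension culture without these factors. Every group of every line carries ERT2-Cre, a recombinase activated by 4-OHT, and only the mutant groups received 4-OHT, so effects of 4-OHT, of active Cre and of the deletion cannot be told apart. The Pcgf1 line has 19 libraries, with control ESCs (4) and control EBs (5) of genotype ERT2-Cre;Pcgf1f/f without 4-OHT, and mutant ESCs (5) and mutant EBs (5) of genotype ERT2-Cre;Pcgf1delta/delta with 4-OHT. The Ring1A-pm;Ring1B-cpm line has 8 libraries, 2 in each group, and models loss of RING1 catalytic activity rather than loss of the proteins. Its controls are labelled ERT2-Cre;Ring1apm/pm;Ring1b and its mutants ERT2-Cre;Ring1apm/pm;Ring1bpm/pm, so the controls carry the Ring1a point mutation too. The other 4 lines have 8 libraries each, for Ring1b on a Ring1a-/- background (ERT2-Cre;Ring1a-/-;Ring1bf/f, with Ring1bdelta/delta in the mutants), for Pcgf2 with Pcgf4 (ERT2-Cre;Pcgf2f/f;Pcgf4f/f), for Pcgf3 with Pcgf5 (ERT2-Cre;Pcgf3f/f;Pcgf5f/f), and for Pcgf6 (ERT2-Cre;Pcgf6f/f), each with delta/delta alleles in its mutants. The lines other than the point mutant line were derived from blastocysts of conditional mice. The sources used here do not say whether replicates were separate cultures, so p-values measure only the spread between these libraries.

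Values are TPM, read counts corrected for transcript length and scaled to a total of 1000000 in every library, so the read depth is unknown and no counting interval can be given. A library listed 6039 to 9139 genes at 0. Pcgf1 itself, in the line named for it, ranged over 10.7 to 13.6 TPM (control ESCs), 0.627 to 2.77 TPM (mutant ESCs), 7.30 to 16.6 TPM (control EBs) and 0.978 to 2.47 TPM (mutant EBs). Ring1b RNA (Rnf2) was at 54.5 to 85.8 TPM in all 8 point mutant line libraries, and since the mutation does not remove the transcript, this level does not check the labels. In 21 of the 32 libraries of the other 4 lines the condition in the deposited name goes against the sample label, against 0 of 27 in the Pcgf1 and point mutant lines. Pcgf6 RNA was at 78.8 to 105 TPM in libraries of the Pcgf6 line labelled mutant ESC and 67.1 to 91.5 TPM in those labelled control ESC. All of these are named as controls. Its level was 34.7 to 35.7 TPM in libraries labelled control EB and 37.0 to 46.3 TPM in those labelled mutant EB, all named as mutants. The targeted gene thus followed the names and went against these labels. In the lines for Pcgf2 with Pcgf4 and for Pcgf3 with Pcgf5, Pcgf2 (39.6 to 55.0 TPM over all 8 libraries) and Pcgf3 (27.6 to 35.6 TPM) overlapped between libraries labelled control and mutant. They also overlapped between libraries named control and mutant, so these levels do not check the labels. Because names and labels disagree in the other 4 lines, the results below rest on the 27 libraries of the Pcgf1 and point mutant lines. The other lines are given library by library at the end.

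In the mm9 genome (NCBIM37, GENCODE M1), Fgf5 lies at chr5:98683203-98706049 on the plus strand, with 1 transcript of 3 exons. Otx2 lies at chr14:49277354-49287319 on the minus strand, with 8 transcripts and 18 distinct exons. Pou3f1 lies at chr4:124334896-124337899 on the plus strand, with 1 transcript of 1 exon in its protein-coding entry. Another annotated entry of the same name overlaps it. The annotated start regions of Fgf5 and Otx2 are shown because PRC1 is targeted to CpG-rich starts and these genes are induced together in control EBs. They come from RefSeq on GRCm38.p6, 2 of the 3 genes matched, and the 250 bases before the start are printed 5′ to 3′ with each CpG in capitals. Otx2 has 4 annotated starts, and the start with the most CpGs is shown.

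Fgf5, chr5:98253934-98254183, plus strand: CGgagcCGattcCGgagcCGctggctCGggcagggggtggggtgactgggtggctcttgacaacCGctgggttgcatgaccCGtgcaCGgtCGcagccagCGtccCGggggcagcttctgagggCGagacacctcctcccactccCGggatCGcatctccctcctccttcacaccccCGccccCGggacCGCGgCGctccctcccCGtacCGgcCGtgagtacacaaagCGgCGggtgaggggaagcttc
Otx2, chr14:48665110-48665359, minus strand: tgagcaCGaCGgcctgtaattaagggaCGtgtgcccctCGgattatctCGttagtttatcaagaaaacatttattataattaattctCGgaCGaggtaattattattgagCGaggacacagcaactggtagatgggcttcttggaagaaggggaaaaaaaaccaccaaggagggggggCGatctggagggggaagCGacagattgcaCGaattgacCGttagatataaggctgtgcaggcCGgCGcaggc

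With the 50 bases after the start included, the Fgf5 window held 29 CpGs, and 12.9% of 32851 windows of the same 300 bases, over all genes, held at least as many. The 4 Otx2 windows held 6, 8, 16 and 11 CpGs, against a median of 7 over all windows, and 33% of windows held at least 16. The Otx2 stretch printed here has TAATCC on one of its strands, the core letters bound by OTX homeodomains, which 7.06% of all windows hold. The Fgf5 window has TATAAA, the TATA box letters, outside the stretch printed here, as does 1 of the other Otx2 windows, and 13.6% of all windows hold these letters on either strand. A match of letters is a description and not a binding site.

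In control cells of the Pcgf1 line all 3 genes rose from ESCs to EBs. Fgf5 was at 0.0893, 0, 0.227 and 0.292 TPM in the control ESC libraries (replicates 1 to 4), and at 46.2, 68.5, 64.5, 26.6 and 25.4 TPM in control EBs (replicates 1 to 5). The ligand was close to absent in ESCs and the groups did not overlap, as for 21.7% of the 20594 tested genes (10.1% higher in EBs). Otx2 was at 15.3, 37.4, 30.96 and 13.8 TPM in control ESCs, and at 92.6, 116, 76.9, 113 and 112 TPM in control EBs. Pou3f1 was at 1.49, 4.37, 3.02 and 2.70 TPM in control ESCs, and at 139, 421, 341, 115 and 124 TPM in control EBs. Of the 3, Otx2 was already clearly transcribed in ESCs, while Fgf5 and Pou3f1 were low there. In bulk RNA, here and in every level below, fewer cells that express a gene and less RNA per cell cannot be told apart.

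**Figure D1:**
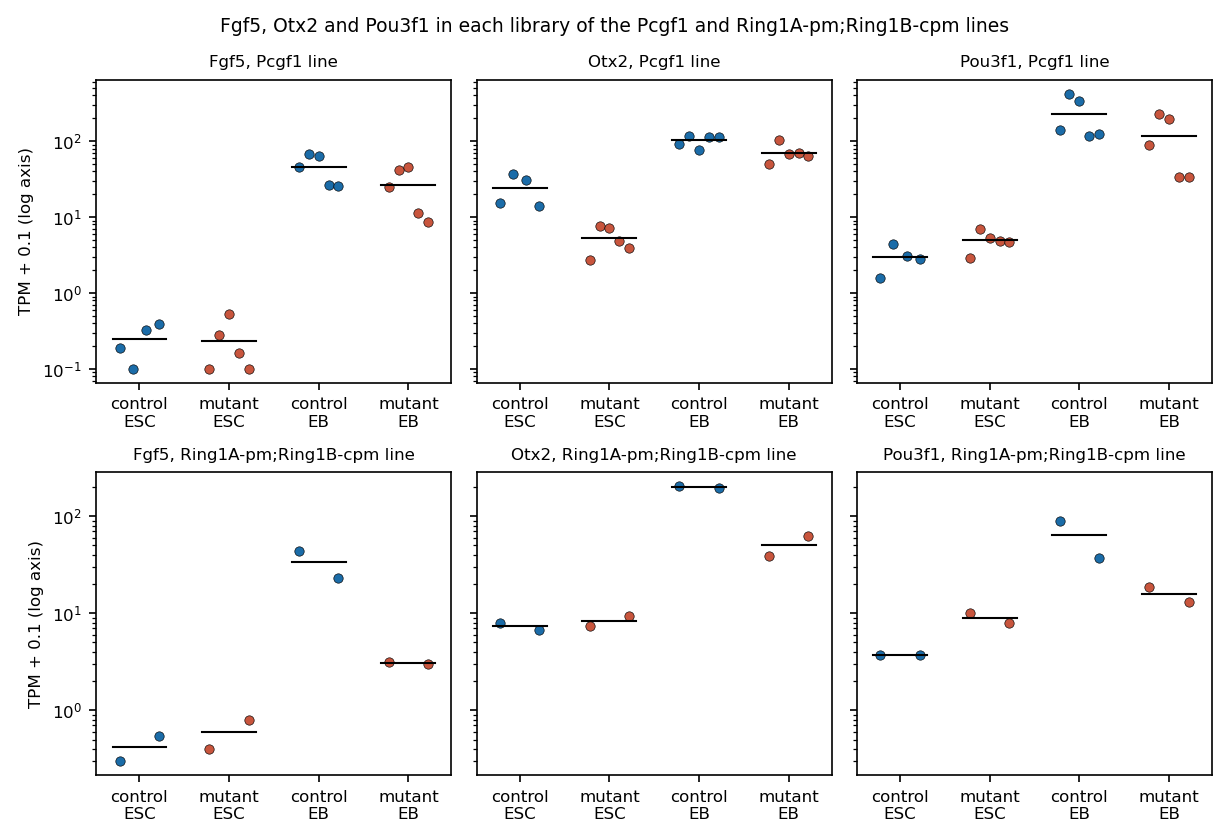
Each point is 1 library, drawn as TPM + 0.1 on a log axis, with control libraries in blue, mutant libraries in red and the group mean as a line, for the Pcgf1 line (top) and the Ring1A-pm;Ring1B-cpm line (bottom). Mutant EBs of the point mutant line sit below control EBs for all 3 genes (2.91 to 3.06 TPM against 22.7 to 44.0 TPM for Fgf5), whereas the EB groups of the Pcgf1 line overlap.

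The changes were tested with limma on log2(TPM + 0.1), fitted across all genes of a line with Benjamini-Hochberg adjustment, and a fold on this scale understates the change of a gene that starts near 0. In control cells Fgf5 rose by 7.58 on this log2 scale (SE 0.60, adjusted p = 9.3e-08) and ranked 2 of 20594 genes by its rise. Pou3f1 rose by 6.12 (SE 0.55, adjusted p = 3.97e-07) and ranked 10, and Otx2 rose by 2.18 (SE 0.32, adjusted p = 7.33e-05) and ranked 650. All 3 of 3 were called, where 11.5% of the tested genes were called higher and 24.9% in either direction (20.7% and 43.9% with a replicate block, in which the replicate number is a term of the fit). The 3 genes were chosen as markers of this transition, so the count describes them.

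Pcgf1-mutant cells also induced all 3 genes. Fgf5 was at 0, 0.185, 0.438, 0.0604 and 0 TPM in mutant ESCs (replicates 1 to 5), and at 25.1, 41.2, 45.8, 11.2 and 8.46 TPM in mutant EBs. Otx2 was at 2.63, 7.601, 7.17, 4.74 and 3.77 TPM in mutant ESCs, and at 49.5, 103, 67.8, 69.1 and 63.1 TPM in mutant EBs. Pou3f1 was at 2.83, 6.91, 5.28, 4.72 and 4.55 TPM in mutant ESCs, and at 88.2, 227, 193, 34.0 and 34.0 TPM in mutant EBs. For each gene the lowest EB library lay above the highest ESC library, as for 6.68% of tested genes. By limma, Fgf5 rose by 6.83 (SE 0.57, adjusted p = 1.8e-07), Otx2 by 3.80 (SE 0.31, adjusted p = 1.28e-07) and Pou3f1 by 4.16 (SE 0.52, adjusted p = 1.57e-05). The 3 calls stand against 8.13% of genes called higher in mutant EBs over mutant ESCs and 18.3% called in all (16.8% and 36.8% with the block).

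In ESCs, Otx2 was lower in Pcgf1 mutants. Its mean was 5.18 ± 2.15 TPM (SD, n = 5) in mutant ESCs and 24.4 ± 11.7 TPM (SD, n = 4) in control ESCs, which is 21.3% of the control level, and the groups did not overlap, as for 4.66% of tested genes (2.56% lower in mutants). The difference was -2.18 on the log2 scale (SE 0.32, limma adjusted p = 0.00522), where 0.32% of tested genes were called lower and 0.641% in all (2.78% and 5.31% with the block). Mutant ESCs were lower in 4 of 4 same-numbered pairs (differences of -2.49 to -1.52). Fitted on the ESC groups alone, the adjusted p was 0.0571. With the 3 library series of this line (replicate 1, replicates 2 and 3, replicates 4 and 5, grouped by how closely whole libraries resembled each other) averaged first, the difference was -2.12 with an adjusted p of 0.303, an alternative chosen after seeing the data. That fit called 0 of 20594 genes in this comparison, and with the block kept on the averaged libraries the adjusted p for Otx2 was 0.0274.

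Neither of the other genes differed past the threshold between the ESC groups. Fgf5 was near 0 in both, with a difference of -0.23 (95% confidence interval -1.49 to 1.04, adjusted p = 1). Pou3f1 was at 4.86 ± 1.47 TPM (SD, n = 5) in mutant ESCs and 2.89 ± 1.19 TPM (SD, n = 4) in control ESCs. Its difference of 0.77 (interval -0.39 to 1.93, adjusted p = 0.818) was positive in 4 of 4 same-numbered pairs, by 0.65 to 0.88, and the groups overlapped.

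In EBs all 3 genes had lower means in Pcgf1 mutants, with overlapping groups. Fgf5 was at 26.3 ± 16.96 TPM in mutant EBs and 46.2 ± 20.3 TPM in control EBs (SD, n = 5 each), which is 57.0% of the control level. Otx2 was at 70.4 ± 19.5 and 102 ± 16.9 TPM (68.9%), and Pou3f1 at 115 ± 90.0 and 228 ± 143 TPM (50.5%). No difference passed the threshold. It was -0.98 for Fgf5 (interval -2.18 to 0.21, adjusted p = 0.578), -0.56 for Otx2 (interval -1.20 to 0.08, adjusted p = 0.531) and -1.20 for Pou3f1 (interval -2.29 to -0.10, adjusted p = 0.349), where limma called 1.95% of genes, 0.874% as lower. The unadjusted limma p of Pou3f1, from the fit across all genes, was 0.0338.

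Much of the spread in EBs lay between replicate numbers. Within a number, the mutant EB was lower than the control EB in 5 of 5 pairs for each gene, with differences of -1.58 to -0.49 for Fgf5, -0.90 to -0.18 for Otx2 and -1.86 to -0.65 for Pou3f1. With the replicate block, Pou3f1 passed the threshold at the same size of -1.20 (adjusted p = 0.0276), where 10.4% of genes were called. One mutant EB library is replicate 4 by its title, which was used, and 5 by its characteristics, and with it numbered 5, a setting chosen after seeing the data, the difference was -1.05 (adjusted p = 0.0381). Fgf5 and Otx2 did not pass with the block, with adjusted p of 0.174 and 0.116. With the library series averaged and the block kept, the difference for Pou3f1 was -1.11 with an adjusted p of 0.172.

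**Figure D2:**
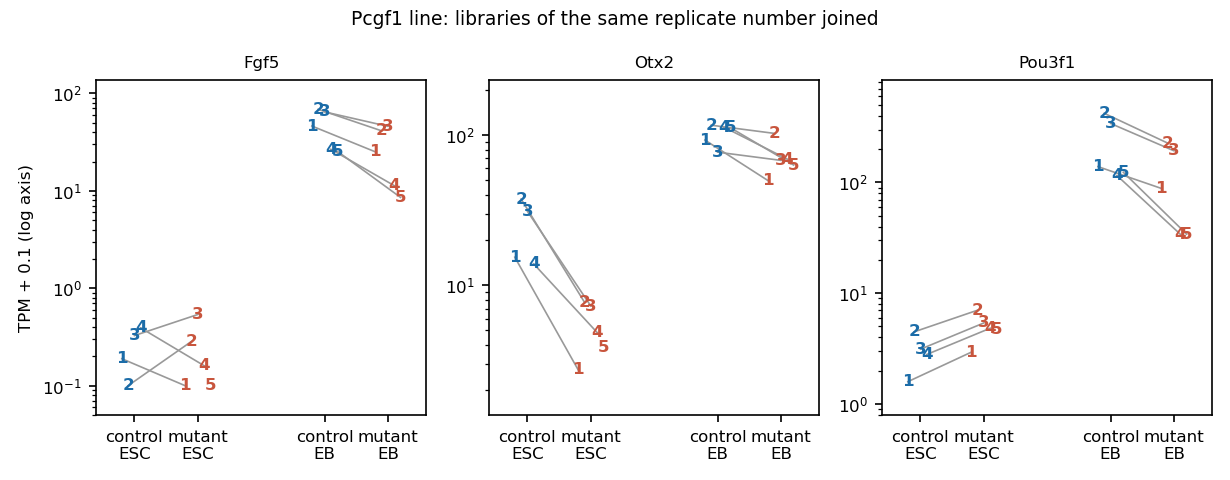
Each number is the replicate number of 1 library of the Pcgf1 line, drawn as TPM + 0.1 on a log axis, and grey lines join the control and mutant library of the same number at the same stage. The lines fall from control to mutant in all 5 EB pairs for each gene and in all 4 ESC pairs for Otx2, and rise in all 4 ESC pairs for Pou3f1.

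The size of the induction itself was compared between mutant and control cells by the interaction of stage and genotype. Induction was larger in mutants by 1.62 for Otx2 (SE 0.45, adjusted p = 0.369), smaller by 1.96 for Pou3f1 (interaction -1.96, SE 0.76, adjusted p = 0.735), and -0.76 for Fgf5 (SE 0.83, adjusted p = 0.986). None passed, and limma called 1 of 20594 genes (0.00486%), while the unadjusted p was 0.00184 for Otx2, 0.0187 for Pou3f1 and 0.373 for Fgf5. With this block, the interaction passed for Otx2 (1.60, adjusted p = 0.0226) and for Pou3f1 (-2.13, adjusted p = 0.0391), where 1.62% of genes were called. With the library series averaged and the block kept, they were 1.50 (adjusted p = 0.282) and -1.89 (adjusted p = 0.347). Otx2 levels of the genotypes were separate in ESCs and overlapped in EBs.

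In the Ring1A-pm;Ring1B-cpm line, control cells induced all 3 genes as well. Fgf5 stood at 0.198 and 0.438 TPM in control ESCs, against 44.0 and 22.7 TPM in control EBs. Otx2 stood at 7.86 and 6.61 TPM in control ESCs, against 204 and 197 TPM in control EBs. Pou3f1 stood at 3.58 and 3.59 TPM in control ESCs, against 90.0 and 37.3 TPM in control EBs. No gene had overlapping groups, and 23.3% of the 20279 tested genes were likewise higher in both control EB libraries than in both control ESC libraries. Fgf5 rose by 6.31 (SE 0.53, limma adjusted p = 0.00212), Otx2 by 4.78 (SE 0.25, adjusted p = 0.000932) and Pou3f1 by 3.98 (SE 0.40, adjusted p = 0.00345), and they ranked 2, 23 and 44 of 20279 genes. The 3 calls stand against 2.73% of genes called higher and 4.73% called in all. The call for Pou3f1 was lost without control ESC replicate 1, control ESC replicate 2 or mutant ESC replicate 2, with adjusted p of 0.0657, 0.0627 and 0.0516.

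In point mutant cells the fitted rise was smaller for each gene, and the test of that difference is given below. Fgf5 was at 0.300 and 0.703 TPM in mutant ESCs and at 3.06 and 2.91 TPM in mutant EBs. Otx2 was at 7.29 and 9.20 TPM in mutant ESCs and at 38.4 and 61.8 TPM in mutant EBs. Pou3f1 was at 10.02 and 7.85 TPM in mutant ESCs and at 18.7 and 12.9 TPM in mutant EBs. Each gene was still higher in both mutant EB libraries than in both mutant ESC libraries, as were 19.1% of tested genes. Otx2 passed the threshold with a rise of 2.56 (SE 0.25, adjusted p = 0.0184), where 0.0493% of genes were called higher and 0.133% in all. Fgf5, at 2.45 (interval 1.22 to 3.67, adjusted p = 0.197), and Pou3f1, at 0.80 (interval -0.14 to 1.74, adjusted p = 0.552), did not pass. The call for Otx2 was lost without any one of 6 of the 8 libraries (control ESC, mutant ESC or control EB of either number), with adjusted p up to 0.163.

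**Figure D3:**
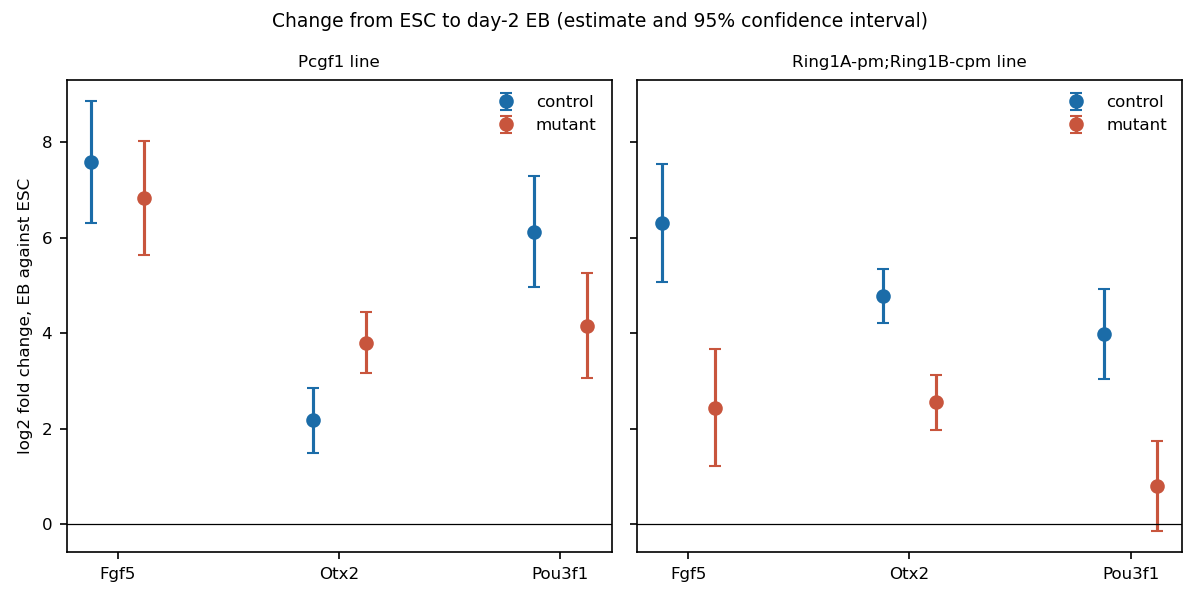
Points give the log2 fold change of EBs over ESCs from the limma fit and bars its 95% confidence interval, with controls in blue and mutants in red. In the Ring1A-pm;Ring1B-cpm line the mutant estimate lies below the control estimate for each gene (2.45 against 6.31 for Fgf5), and in the Pcgf1 line the mutant estimate lies above it for Otx2 (3.80 against 2.18) and below it for Fgf5 and Pou3f1.

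All 3 genes were lower in EBs of the point mutant than in control EBs. Fgf5 stood at 2.99 ± 0.106 TPM against 33.3 ± 15.03 TPM in controls (SD, n = 2 each), or 8.96% of the control level. Otx2 stood at 50.1 ± 16.5 against 201 ± 5.19 TPM (24.9%), and Pou3f1 at 15.8 ± 4.10 against 63.6 ± 37.2 TPM (24.9%). The groups did not overlap for any of them, where 13.6% of tested genes lay lower in both mutant EB libraries and 43.7% did not overlap in either direction. By limma the differences were -3.36 for Fgf5 (SE 0.53, adjusted p = 0.0197), -2.04 for Otx2 (SE 0.25, adjusted p = 0.0119) and -1.89 for Pou3f1 (SE 0.40, adjusted p = 0.0463). The 3 calls stand against 0.764% of 20279 genes called lower in this comparison, and 4.53% called in either direction. With 2 libraries a group these calls were not stable to the loss of a library. Without any one of the 8 libraries, Fgf5 (adjusted p = 0.0506 to 0.136) and Pou3f1 (adjusted p = 0.0561 to 0.204) no longer passed, and Otx2 no longer passed without mutant ESC or control EB of either number or mutant EB replicate 1 (adjusted p = 0.0640 to 0.0995). Pou3f1 also lost its call under both other scalings of the libraries (adjusted p = 0.0526 and 0.0652) and when only the 2 EB groups were fitted (adjusted p = 0.104), where Fgf5 and Otx2 kept theirs (adjusted p = 0.0386 each). The direction was kept in all of these fits, and without control EB replicate 1 the difference for Pou3f1 was -1.26.

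In ESCs of this line, Pou3f1 had the largest difference of the 3, which did not pass the threshold. Mutant ESCs stood at 8.93 ± 1.54 TPM and control ESCs at 3.58 ± 0.00824 TPM (SD, n = 2 each), 249% of the control level with no overlap (as for 45.4% of tested genes, 32.5% as higher), for a difference of 1.28 (SE 0.40, unadjusted p = 0.0140, limma adjusted p = 0.152). Fgf5 (0.50, interval -0.73 to 1.73) and Otx2 (0.18, interval -0.39 to 0.76) had overlapping groups. No ESC difference of the 3 passed the threshold, where 2.54% of genes did, 0.197% as lower. In log2(TPM + 0.1) without further scaling, the median gene was already higher in mutants, by a log2 difference of 0.12 in ESCs and 0.10 in EBs. A difference here can be read relative to that.

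The interaction was negative for each gene in the point mutant line, at -3.86 for Fgf5 (interval -5.60 to -2.12), -2.22 for Otx2 (interval -3.04 to -1.41) and -3.17 for Pou3f1 (interval -4.50 to -1.84). Their unadjusted p were 0.00103, 0.000281 and 0.000669, and the adjusted p were 0.273, 0.168 and 0.226, so none passed. Limma called 2 of 20279 genes in this test (0.00986%). Within replicate numbers, the rise of Fgf5 was 5.41 and 7.21 in controls and 1.91 and 2.98 in mutants. That of Otx2 was 4.68 and 4.88 against 2.38 and 2.73, and that of Pou3f1 was 3.34 and 4.61 against 0.71 and 0.89.

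Across the 4 groups, the order of the means was control EB, mutant EB, then the ESC groups for all 3 genes in both lines. In the Pcgf1 line, neighbours in this order overlapped between the EB groups for each gene and between the ESC groups for Fgf5 and Pou3f1, while Otx2 separated mutant ESCs (2.63 to 7.601 TPM) from control ESCs (13.8 to 37.4 TPM). The EB groups of the point mutant line were separate for each gene, and the ESC groups overlapped for Fgf5 and Otx2 but not for Pou3f1.

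Markers of other cell types moved with these groups. The 8 feeder fibroblast markers (such as Col1a1, which encodes a collagen chain) had in the Pcgf1 line a summed level of 191 to 276 TPM (control ESCs), 146 to 219 TPM (mutant ESCs), 24.0 to 45.5 TPM (control EBs) and 7.37 to 13.8 TPM (mutant EBs). Their sum in the point mutant line was 35.6 to 39.98 TPM (control ESCs), 60.6 to 65.6 TPM (mutant ESCs), 28.7 to 31.9 TPM (control EBs) and 65.7 to 69.5 TPM (mutant EBs), and 4 of 8 markers (Col1a1, Col1a2, Thy1 and Twist2) were called higher in mutant EBs, where 3.76% of all genes were. Thy1 made up most of that sum in EBs, with means of 23.2 TPM in control and 45.6 TPM in mutant EBs. The 8 markers of primitive and visceral endoderm, an early extraembryonic lineage, were summed in the same line. The sums were 11.8 to 14.2 TPM (control ESCs), 40.5 to 40.7 TPM (mutant ESCs), 20.7 to 24.5 TPM (control EBs) and 52.4 to 53.5 TPM (mutant EBs). Of these markers 3 of 8 were called higher in its mutant EBs, namely Gata6 (1.61) and Amn (1.57) with Pdgfra (1.93), where 3.76% of all genes were. In mutant EBs of the Pcgf1 line 3 of 8 were called higher too, Gata4 (1.40), Gata6 (2.60) and Pdgfra (2.11), where 1.08% of all genes were, and the summed level of the list was 10.7 to 26.6 TPM against 8.59 to 23.9 TPM. With the library series of the Pcgf1 line averaged, or with only the EB groups of the point mutant line fitted, limma called 0 of 8 in either list. Of all genes 0.00971% and 0.862% were called in these fits between mutant and control EBs. From ESCs to EBs in control cells of the Pcgf1 line, the feeder markers Col1a1 (-4.98), Postn (-4.32) and Col1a2 (-4.25) fell and Dcn (4.51) rose, and the endoderm marker Dab2 (2.77) rose while Sox17 (-1.32) and Pdgfra (-1.26) fell. In the point mutant line 7 primitive streak genes summed to 14.1 to 16.2 TPM (control ESCs), 23.7 to 25.3 TPM (mutant ESCs), 8.07 to 12.4 TPM (control EBs) and 23.3 to 27.7 TPM (mutant EBs). The 6 neural genes summed to 10.7 to 13.2 TPM, 31.1 to 36.3 TPM, 7.93 to 9.38 TPM and 21.1 to 29.5 TPM in the same order. In its mutant EBs 2 of 7 and 1 of 6 were called higher, where 3.76% of all genes were. The part of other cell types in the levels of Fgf5, Otx2 and Pou3f1 was not tested.

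Other genes of the formative epiblast moved with the 3 markers in control cells. Of 12 such genes, 10 were called higher and 0 lower in control EBs of the Pcgf1 line, with a median change of 2.65 against 0.00 for all tested genes, of which 11.5% were called higher. Dnmt3b and Dnmt3a, the de novo DNA methyltransferases, rose by 5.34 and 4.03, and the transcription factor genes Sox3 and Sall2 rose by 4.55 and 4.33. In Pcgf1-mutant EBs 10 of 12 were again called higher over ESCs (8.13% of all genes), with a median of 2.30, and Sox3 rose by 5.03 and Dnmt3b by 2.76. Between mutant and control EBs, 1 of 12 was called, Zic2, a zinc finger transcription factor gene, at -1.28, where 0.874% of all genes were called lower. With the replicate block 2 were called higher and 5 lower, against 4.83% and 5.58% of all genes.

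Of these 12 genes in the point mutant line, 8 were called higher and 1 lower in control EBs over ESCs (median 1.53), against 2.73% and 2% of all genes, and 0 in mutant cells by limma (median 0.73, with 0.133% of all genes called), where 7 had an unadjusted p under 0.05. Dnmt3b averaged 55.6 TPM in control ESCs, 72.8 TPM in mutant ESCs, 243 TPM in control EBs and 66.2 TPM in mutant EBs. Its difference between mutant and control EBs did not pass the threshold. Mutant EBs were lower than control EBs for Sall2 (-1.92), Pim2 (-1.87), Zic2 (-1.48) and Dnmt3a (-1.02), and higher for Sox3 (1.60) and Etv4 (0.92), where 0.764% of all genes were called lower and 3.76% higher. The list thus did not move 1 way, and its median of -1.23 stood against 0.10 for all genes. With median-of-ratios scaling 1 was called higher and 5 lower, against 3.13% and 1.45% of all genes. With quantile normalization they were 1 and 6, against 2.37% and 1.47%, and with only the EB groups fitted 0 of 12, against 0.862% called in all.

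Naive genes moved the other way. All 10 of 10 were called lower in control EBs of the Pcgf1 line (median -2.93), against 13.4% of all genes, among them Klf4 (-7.12), Tfcp2l1 (-5.08), Tbx3 (-4.55) and Prdm14 (-3.27), which encode transcription factors of the naive network. In Pcgf1-mutant cells 8 of 10 were called lower (median -1.89, against 10.2% of all genes), and mutant EBs exceeded control EBs for 2 of 10, Tfcp2l1 (1.52) and Nr0b1 (1.26), where 1.08% of all genes were called higher. With the block 7 of 10 were called higher there, against 4.83% of all genes. The point mutant line had 8 of 10 called lower in controls (median -1.50, against 2% of all genes) and 0 of 10 in mutants by limma (median -0.53, against 0.0838%), where 6 had an unadjusted p under 0.05. Klf4 (1.19), Tbx3 (2.05) and Nanog (1.16) were higher in mutant EBs than in control EBs, as were 3.76% of all genes. With either other scaling 2 of these 10 genes were called, where 4.58% (median-of-ratios) and 3.85% (quantile) of all genes were, in either direction. Core pluripotency genes (Pou5f1, Sox2 and Sall4) gave 0 of 3 calls in either line by limma for EBs over ESCs. An unadjusted p under 0.05 was found for 1, in control cells of the Pcgf1 line, where the block called 1 lower (23.3% of all genes). In control cells of that line, of 7 primitive streak genes 1 rose and 2 fell from ESCs to EBs (Wnt3 at 2.57, Gsc at -2.50 and Eomes at -2.06). Of 6 neural genes 3 rose there, among them Pax6 (3.80) and Neurod1 (3.32), and 1 fell (Lhx5 at -1.14). Of all genes 11.5% were called higher and 13.4% lower in this comparison.

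**Figure D4:**
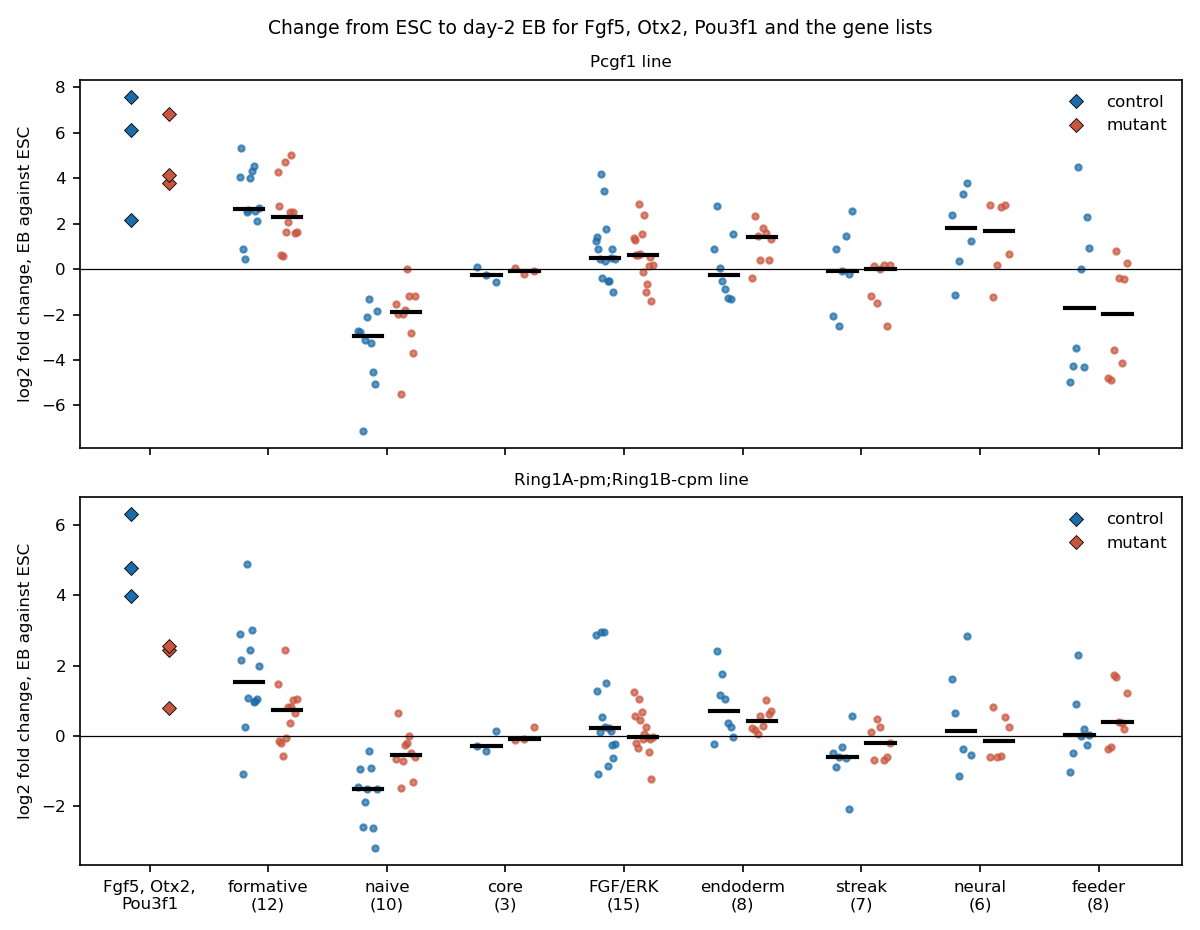
Each point is the log2 fold change of EBs over ESCs of 1 gene in the limma fit, with controls in blue and mutants in red, diamonds for Fgf5, Otx2 and Pou3f1, and a black line for the median of each list (number of genes in brackets). Control medians were 2.65 for formative and -2.93 for naive genes in the Pcgf1 line (top), and in the point mutant line (bottom) the mutant medians were 0.73 and -0.53.

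FGF signalling through ERK drives the exit from the naive state, so its genes were counted beside Fgf5. Of 15 ligands, receptors and targets, 5 were called higher and 1 lower in control EBs of the Pcgf1 line (median 0.50), against 11.5% and 13.4% of all genes, and with the block 11 and 3, against 20.7% and 23.3%. The ligand genes Fgf15 and Fgf8 rose by 4.18 and 3.42, the receptor gene Fgfr2 by 1.76, and Dusp6, which encodes an ERK phosphatase, by 1.40. In Pcgf1-mutant cells 5 were called higher and 2 lower (8.13% and 10.2% of all genes), with Fgf15 at 2.86 and Fgf8 at 1.56. Between mutant and control EBs of this line limma called 0 of 15, with 1 unadjusted p under 0.05.

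Fgf15 rose by 2.94 and Fgf8 by 2.95 in control cells of the point mutant line. Fgf15 was lower in mutant EBs (14.8 TPM on average) than in control EBs (57.9 TPM), at -1.92 (limma adjusted p = 0.0245). Fgf8 was higher in mutant ESCs (3.99 TPM) than in control ESCs (0.548 TPM), at 2.66, and did not differ past the threshold in EBs. The receptor gene Fgfr3 was higher in mutant EBs (2.22). Of the 15 genes 2 were called higher and 1 lower in mutant EBs, where 3.76% and 0.764% of all genes were. With median-of-ratios scaling the counts were 1 and 2, against 3.13% and 1.45% of all genes.

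Relatives of the 3 genes showed other patterns in the point mutant line. Otx1, the paralogue of Otx2, averaged 0.200 and 0.326 TPM in control ESCs and EBs of the point mutant line, and 3.25 and 3.17 TPM in the mutants, and was called higher at both stages (3.48 and 2.94), where Otx2 was lower in mutant EBs. Pou3f3, from the same POU class as Pou3f1, was called higher in mutant EBs (2.62, with 0.245 TPM in control and 2.03 TPM in mutant EBs). With either other scaling 1 of the 10 relatives was called higher there, against 3.13% (median-of-ratios) and 2.37% (quantile) of all genes. In the Pcgf1 line neither relative gave a call between mutant and control. Fgf4, the FGF ligand of naive cells, was called in 1 of the 4 comparisons of the Pcgf1 line, mutant EBs over mutant ESCs (0.65), and in none of the point mutant line. Pou5f1 had no call in either line, and Crx, Pou3f2 and Pou3f4 had mean levels under 1 TPM in every group of both lines.

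The study sorted genes by RING1B binding in the Pcgf1 line, and its Group 3, whose binding was lower in EBs than in ESCs, holds 73 genes, including these 3. The list was chosen by the study on the same cell system, so it is not independent evidence of a direction. Of 72 found in the files, 68 could be tested in the Pcgf1 line, and 50 were called higher and 2 lower in control EBs (median 2.16), against 11.5% and 13.4% of all genes, and 40 and 1 in mutant cells (median 1.62), against 8.13% and 10.2%. Wt1 (7.35) and Bcl11a (6.47), both transcription factor genes, rose by amounts close to those of Fgf5 and Pou3f1. Between mutant and control EBs 0 were called higher and 3 lower (Cxcl12, Ier5 and Zic2), against 1.08% and 0.874% of all genes, and with the block 4 and 16, against 4.83% and 5.58%.

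Of the same list, 66 genes were tested in the point mutant line, and 24 were called higher in control EBs (2.73% of all genes), against 1 in mutant cells (Otx2, where 0.0493% of all genes were), where 18 had an unadjusted p under 0.05. Between mutant and control EBs 6 were called lower, namely Fgf5, Otx2, Pou3f1, Zic2, Bcl11a (-3.36) and 2610035F20Rik, and 2 higher, Galnt3 and Sox3, where 0.764% and 3.76% of all genes were. The median difference was 0.01 against 0.10 for all genes, and it was -0.12 with median-of-ratios scaling and -0.31 with quantile normalization. Wt1 was at 0.265 TPM in control ESCs and 4.73 TPM in mutant ESCs, and was called higher there (3.89).

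Over the 19 libraries of the Pcgf1 line, and among 13400 genes with a mean of at least 1 TPM, the genes whose log2(TPM + 0.1) followed each marker most closely were ranked by Pearson's r. For Fgf5 they were Crmp1, Cgnl1 and Pdzd4 (r = 0.985 each). For Pou3f1 they were Dnmt3b (0.987), Mid1ip1 (0.985) and Bcl11a (0.984), and for Otx2 Foxr2 (0.963), Myb (0.962) and 2610037D02Rik (0.957). The genes nearest to Otx2 were picked by their likeness to it over these same libraries, so their levels in mutant ESCs only describe that choice. Foxr2 was at 0.0758 to 0.342 TPM there and 0.558 to 1.59 TPM in control ESCs. Myb was at 2.00 to 4.90 and 4.68 to 12.1 TPM, ranges that overlapped. Among the 3 markers r was 0.967 for Fgf5 with Pou3f1, 0.871 for Fgf5 with Otx2 and 0.819 for Otx2 with Pou3f1. These values describe libraries that fall into ESC and EB groups and each sum to 1000000 TPM, and carry no test.

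In the other 4 lines the levels of the 3 genes followed the stage in the deposited names and not the stage in the sample labels. The stage differs between name and label in 14 of 32 libraries. In the 16 libraries named as EBs, Fgf5 was at 7.53 to 46.3 TPM, Otx2 at 54.3 to 164 TPM and Pou3f1 at 36.8 to 305 TPM. In the 16 named as ESCs, Fgf5 was at 0 to 0.816 TPM, Otx2 at 1.65 to 43.0 TPM and Pou3f1 at 3.10 to 20.3 TPM. By label the ranges overlapped. Genes outside the 3 did the same, with Dnmt3b at 194 to 685 TPM in libraries named as EBs and 25.05 to 77.5 TPM in those named as ESCs, and Klf4 at 3.25 to 118 TPM and 120 to 766 TPM. By label Dnmt3b was at 31.7 to 582 TPM (EB) and 25.05 to 685 TPM (ESC), so these ranges overlapped. Groups were kept as labelled, and no comparison was set up by name.

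**Figure D5:**
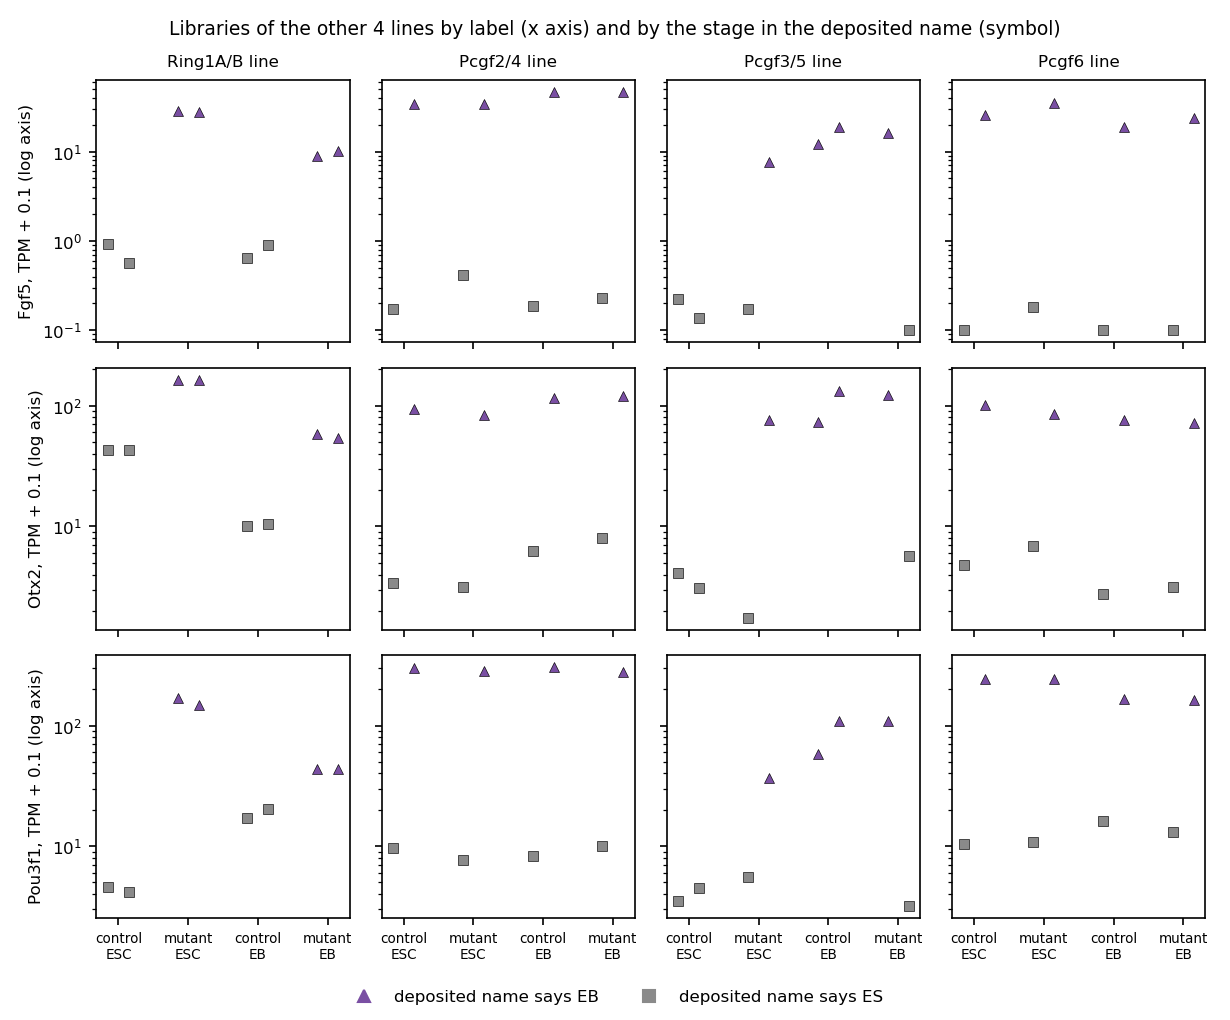
Each symbol is 1 library of the Ring1A/B, Pcgf2/4, Pcgf3/5 or Pcgf6 line, placed by its sample label on the x axis and by TPM + 0.1 on a log axis, with purple triangles for deposited names that say EB and grey squares for names that say ES. All 16 triangles lie above all 16 squares in each row, and in 3 of the lines groups by label hold both symbols.

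In the Ring1A/B line, Fgf5 was at 0.816 and 0.465 TPM in libraries labelled control ESC, 0.540 and 0.791 TPM in control EB, 27.98 and 27.5 TPM in mutant ESC and 8.71 and 9.91 TPM in mutant EB. Otx2 was at 43.0 and 42.6 TPM, 10.05 and 10.4 TPM, 164 and 164 TPM, and 58.2 and 54.3 TPM in the same order. Pou3f1 was at 4.51 and 4.03 TPM, 16.97 and 20.3 TPM, 169 and 149 TPM, and 43.1 and 43.6 TPM. The libraries labelled mutant ESC, which are named as control EBs, held the highest level of each gene in this line. Those labelled control EB are named as mutant ESCs. By the names, each comparison by label below sets mutant against control cells within a stage. By label, limma gave changes from ESC to EB of 0.07 for Fgf5 (adjusted p = 0.881), -2.05 for Otx2 (adjusted p = 2.49e-07) and 2.09 for Pou3f1 (adjusted p = 8.65e-06) among libraries labelled control, where 43.2% of genes were called. Among those labelled mutant they were -1.57 (adjusted p = 0.00155), -1.54 (adjusted p = 3.96e-07) and -1.87 (adjusted p = 4.92e-06), where 56.5% of genes were called.

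In the Pcgf2/4 line, each labelled group held 1 library with low and 1 with high levels. Replicate 1 of the 4 groups had Fgf5 at 0.0713 to 0.319 TPM, Otx2 at 3.06 to 7.93 TPM and Pou3f1 at 7.57 to 9.97 TPM. Replicate 2 had 33.9 to 46.3 TPM, 83.6 to 120 TPM and 280 to 305 TPM. In the Pcgf6 line the same split by replicate number was seen, with Fgf5 at 0 to 0.0813 TPM against 18.6 to 35.2 TPM, Otx2 at 2.69 to 6.77 TPM against 71.1 to 101 TPM, and Pou3f1 at 10.3 to 16.1 TPM against 163 to 245 TPM. In both lines every replicate 1 library is named as ESC and every replicate 2 library as EB. Each labelled group thus mixed the named stages, and a comparison by label could not measure the change between them. In these 2 lines limma called 0 genes for the change from ESC to EB by label among libraries labelled control or mutant, with an unadjusted p under 0.05 for 239 and 286 genes (Pcgf2/4, control and mutant) and 1060 and 1126 genes (Pcgf6).

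In the Pcgf3/5 line, the 2 libraries labelled control EB had Fgf5 at 12.01 and 18.5 TPM, Otx2 at 72.8 and 132 TPM and Pou3f1 at 57.6 and 110 TPM, against 0.125 and 0.0388 TPM, 4.01 and 2.98 TPM, and 3.39 and 4.42 TPM in control ESC. The libraries labelled mutant ESC had Fgf5 at 0.0734 and 7.53 TPM, and those labelled mutant EB at 16.1 and 0 TPM, so each mutant group held both a low and a high library. The control changes by label were 6.41 for Fgf5, 4.78 for Otx2 and 4.33 for Pou3f1 (limma adjusted p = 0.343 each), where 0.0601% of genes were called. Without the libraries whose names and labels disagree, 1 control ESC and 1 control EB remain, with differences of 6.45, 4.57 and 3.67 and no test. In the mutants they were 0.15, 1.19 and 0.39, with 0 genes called by limma and 315 with an unadjusted p under 0.05. No other change from ESC to EB within a genotype of these 4 lines can be computed without those libraries.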

How the data were processed

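Poly(A) RNA of ESCs and EBs was sequenced as single-end reads, aligned to mm9 with STAR 2.5.2b and counted over exons by the authors. The deposited values are TPM per gene symbol and library, and how the counts became TPM, and whether counting used strand, is not given in the sources used here. The authors also list DESeq2, which was not used because the files hold no counts. Groups came from the sample labels. The 3 genes and all gene lists (formative, naive, core, streak, neural, endoderm, feeder, FGF and ERK, relatives, RING1B Group 3) were chosen with earlier results of these data known.

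For each line, log2(TPM + 0.1) was fitted over the 4 groups with limma 3.58.1 (R 4.3.3, empirical Bayes with a trend), leaving out genes at 0 in every library. P-values are two-sided and were adjusted over all genes by Benjamini-Hochberg, with a threshold of 0.05. The scripts were tested on simulated data. Named genes were the 3 markers, the targeted genes, relatives, up to 4 genes per list with the largest called change in control cells of the Pcgf1 line, and the 3 genes nearest to each marker. One list gene is not reported here. Other list genes, named for a call between mutant and control, were chosen after their values were seen. Alternatives were a pseudocount of 1, a mean of at least 1 TPM, median-of-ratios and quantile scaling, the replicate number as a block, only the groups compared, and each library left out. In the Pcgf1 line same-numbered libraries deviated together from their group means in all 27 pairs (r = 0.317 to 0.653 over 13400 genes). The numbers come from the labels. Libraries of the same series but of different numbers were not compared across groups. These values therefore cannot show whether the number or the library series pairs the samples. Pearson's r was 0.106 to 0.381 in the point mutant line with its 2 numbers. Within the Pcgf1 line, replicates 4 and 5 differed less (SD of log2 differences 0.143 to 0.168) than replicates 2 and 3 (0.350 to 0.411) or other pairs (0.466 to 0.956), and 0 of 1711 library pairs were identical. Positions are from GENCODE M1, and start sequences from RefSeq.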

Additional observations from a re-analysis of the deposited data

Results flagged for a closer look

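In the Pcgf1 line the change from ESCs to EBs differed between mutant and control cells for 2 of the 3 genes by the interaction test in limma with the replicate number as a block. For Otx2 the mutant change exceeded the control change by 1.60 (adjusted p = 0.0226), and for Pou3f1 the interaction was -2.13 (adjusted p = 0.0391). Both rested on the block, since without it the adjusted p were 0.369 and 0.735, and with the block on averaged library series, chosen after seeing the data, they were 0.282 and 0.347. No library stood out from its group by Dixon's outlier test on TPM for any of the 3 genes. The 12 combinations of gene and group examined came from the 4 groups of the Pcgf1 line with 4 or 5 libraries each. Groups this small that spread between library series, as for Pou3f1 in control EBs (115 to 421 TPM), leave the test little power.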

How the results depend on the processing

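Over all settings, 883 values kept their direction and side of the threshold, 39 lost a call and 9 gained one. Another 47 changed sign, none of which had been called. The 883 include the control changes of the 3 genes in the Pcgf3/5 line without the libraries whose names and labels disagree. Those changes had no test and so no side of the threshold. Where no cause is named, the cause was not tested. In the Pcgf1 line the calls for the ESC to EB change held for all 3 genes in every alternative, and leaving out any of the 19 libraries changed no call. With the replicate block the Pou3f1 difference in EBs (-1.20) and the interactions of Otx2 (1.60) and Pou3f1 (-2.13) passed, Fgf5 in ESCs was 0.024, and the block changed no other call of the 3 genes in this or the point mutant line. With mutant EB replicate 4 numbered 5 in the block, chosen after seeing the data, these were -1.05, 1.59 and -2.05, all passing, and Fgf5 in ESCs was 0.048. Otx2 in ESCs lost its call with only the groups compared (-2.18), and, in settings chosen after seeing the data, with library series averaged (-2.12) and without replicates 4 and 5 (-2.29), where Fgf5 in ESCs was 0.44. Without 1 library Fgf5 in ESCs ranged from -0.61 to 0.047.

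The mutant rise of Otx2 in the point mutant line lost its call with a pseudocount of 1 (2.43) or only the groups compared (2.56), as did Pou3f1 in EBs (-1.83 and -1.89) and with median-of-ratios (-2.02) and quantile scaling (-1.99), and quantile scaling gave -0.24 for Fgf5 and -0.057 for Otx2 in ESCs. Without 1 library the ranges were 3.34 to 4.61 for the control rise of Pou3f1, 2.21 to 2.90 for the mutant rise of Otx2, -0.0032 to 1.00 for Fgf5 in ESCs, and, in EBs, -3.84 to -2.89 for Fgf5, -2.38 to -1.70 for Otx2 and -2.52 to -1.26 for Pou3f1. The lone library left in a group was assumed to vary like the others.

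By label in the other lines, the control change of Fgf5 in the Ring1A/B line was -0.041 and -0.76 with median-of-ratios and quantile scaling, and -0.28 to 0.42 without 1 library. In the Pcgf2/4 line the mutant change of Fgf5 was 0.10 with a pseudocount of 1 and the control change of Pou3f1 0.026 with quantile scaling. In the Pcgf6 line the control change of Pou3f1 was -0.35 and -0.090 with the 2 scalings. In the Pcgf3/5 line the control changes passed with only the groups compared (6.41, 4.78 and 4.33). Without 1 library, values for Fgf5, Otx2 and Pou3f1 ranged from -3.70 to 4.27, -1.81 to 2.97 and -2.69 to 2.51 (Pcgf2/4 controls), -4.03 to 3.61, -1.43 to 3.30 and -2.42 to 2.79 (Pcgf2/4 mutants), -3.52 to 3.81, -1.53 to 3.92 and -2.15 to 2.93 (Pcgf3/5 mutants), -4.24 to 3.77, -2.98 to 1.77 and -2.24 to 2.32 (Pcgf6 controls), and -4.66 to 3.22, -2.92 to 1.56 and -2.40 to 2.10 (Pcgf6 mutants).

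Counts of called genes in the Pcgf1 line (control rise, mutant rise, ESC, EB, interaction) were 5138, 3770, 132, 402 and 1, and 9050, 7573, 1094, 2143 and 333 with the block. They were 2816, 1547, 0, 2 and 0 with series averaged, and 4106, 2646, 38, 38 and 6 without replicates 4 and 5. In ESCs and EBs 93 and 68 were called with only the groups compared. A pseudocount of 1 gave 233 in ESCs, the 2 scalings 208 and 207, and interaction counts were 8, 12, 27 and 3 with a pseudocount of 1, the scalings and a mean of at least 1 TPM. For the point mutant line the counts were 960, 27, 515, 918 and 2, against 2018, 102, 1326, 2056 and 4 with the block, and 464, 0, 0 and 169 with only the groups compared. There quantile scaling gave 42 for the mutant rise and 207 in ESCs, and a pseudocount of 1 gave 5 and, for the interaction, 13. In EBs of this line 763 genes were higher and 155 lower, against 634 and 295 with median-of-ratios and 481 and 299 with quantile scaling. In its ESCs 475 and 40 became 167 and 40, and its mutant rise went from 10 and 17 to 14 and 15 and to 22 and 20. EBs of the Pcgf1 line went from 222 and 180 to 369 and 184 with quantile scaling. In the Pcgf3/5 line 12 genes were called for the control change and 0 with the block, also with the numbers crossed. Depth is unknown, so the precision near 0 TPM, as for Fgf5 in ESCs, cannot be given.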
